A study of Aspergillus nidulans with 48 samples.

Results

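Expression of 5 starch-degradation genes of *Aspergillus nidulans* was followed through 48 RNA-seq libraries. The genes were the regulator *amyR* (AN2016), the putative α-glucosidase genes *agdA* (AN2017) and *agdB* (AN8953), and the putative α-amylase genes *amyA* (AN2018) and *amyB* (AN3402). They were chosen by identifier and are 5 of the 10988 genes in the deposited table, and all 5 are in it. The strains were the control THS30.3, a mutant lacking *atfA* (Δ*atfA*), another lacking *atfB* (Δ*atfB*), and Δ*atfA*Δ*atfB*, which lacks both. *atfA* and *atfB* encode bZIP transcription factors. Each strain was grown as surface cultures on Barratt's agar plates at 37 °C, untreated or with menadione sodium bisulfite (MSB), which makes cells produce superoxide. Its dose is written 0.04 Mm in the labels and was read as mM. By the study's methods, the mycelial libraries came from young cultures sampled before conidiophores, the stalks that bear spores, had formed. The conidial libraries came from asexual spores rinsed off older plates. The 16 groups of cell type, strain and treatment had 3 libraries each. The genotype label of the Δ*atfA*Δ*atfB* libraries names *atfB* in both places, so their genotype was taken from the titles and the study's methods.

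Filamentous fungi break down starch outside the cell with α-amylases, which cut inside the chain, and with glucoamylases and α-glucosidases, which release glucose from its ends. AmyR is a Zn(II)2Cys6 transcription factor that activates the genes of these enzymes, and in *A. nidulans* isomaltose is known as a strong inducer of them. AgdB of *A. nidulans* is known for strong transglycosylation, by which it makes isomaltose from maltose. The carbon catabolite repressor CreA holds such genes down on glucose. In the RefSeq annotation of assembly ASM1142v1, used for gene order alone, *amyR*, *agdA* and *amyA* lie side by side in this order on chromosome VII. *agdB* lies elsewhere on chromosome VII and *amyB* on chromosome VI.

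Total counts ranged from 12974631 to 36314359 per mycelial library and from 8426329 to 24958904 per conidial library. Reads of *atfA* fell with its deletion, from group means of 43.2 to 73.6 RPKM (reads per kilobase of gene, scaled to library size) in mycelia with the gene to 4.06 to 14 without, and from 324 to 561 to 7.58 to 40.5 RPKM in conidia. Spore markers (*wetA*, *vosA* and *conJ*, 3 of 3 detected) summed to 18.8 to 39.8 RPKM in mycelia and to 9407 to 14481 RPKM in conidia of the control and of the libraries labelled Δ*atfB*. They summed to only 159 to 349 RPKM in Δ*atfA* and Δ*atfA*Δ*atfB* conidia. A sum can rest mostly on 1 abundant gene, and the markers are not given separately here. Conidiophore markers (*brlA*, *abaA*, *ivoB*, *yA* and *wA*) were present in untreated mycelia, with median sums of 130 RPKM in the control to 406 in Δ*atfA*. Absence of conidiophores there is thus not borne out by these markers. The *atfB* level in conidia labelled Δ*atfB* was 257 ± 50.9 RPKM untreated and 192 ± 63.3 on MSB, against 307 ± 54.8 and 266 ± 29.4 in the control (SD, n = 3 each). The deleted gene thus does not bear out that label, on which all directions given for these libraries depend. In mycelia the check of *atfB* was weak on MSB, with 0.822 ± 0.372 RPKM in Δ*atfB* against 1.46 ± 0.0823 in the control.

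The scaling of the conidial libraries differed between strains. Relative log expression (RLE) factors averaged 0.704 in untreated control conidia, 0.903 in those labelled Δ*atfB*, 1.23 in Δ*atfA* and 1.28 in Δ*atfA*Δ*atfB*, whereas all mycelial groups averaged 0.976 to 1.04. On unscaled log2(RPKM + 0.1) the median gene was 0.72 to 0.89 higher in Δ*atfA* or Δ*atfA*Δ*atfB* conidia than in control conidia, and 0.27 to 0.35 higher in those labelled Δ*atfB*. Fold changes between conidial strains below are on RLE-scaled counts, that is, relative to this shift, while levels are the authors' RPKM. To count as upregulated or downregulated (called), a gene needed a log2 fold change beyond 1 and an adjusted p (Benjamini-Hochberg, edgeR's quasi-likelihood F test) under 0.05.

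The 5 genes stood at very different levels. In mycelia, *agdB* spanned 6.9 to 974 RPKM over 24 libraries (median 111.7), and its highest group mean was 96 times its lowest. *agdA* spanned 24.4 to 70.9 RPKM (median 38.5) and *amyR* 20 to 59 (median 28.7). *amyA* was low at 3.39 to 12.7 RPKM (median 5.28). *amyB* was close to silent in mycelia, with 0 to 10 counts per library and no library at 0.5 RPKM, the minimum asked for in at least 3 libraries, so it was not tested there. The 3 libraries with 0 counts allow up to 0.0738 to 0.0842 RPKM each (3 counts, counting error only). Without the filter none of the 17 mycelial comparisons called *amyB* (smallest adjusted p = 0.0907).

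In conidia *agdB* spanned 5.62 to 102.2 RPKM (median 26.8), *agdA* 16.7 to 85.8 (median 46), *amyR* 7.23 to 34.7 (median 17.8), *amyB* 1.03 to 61.5 (median 7.91) and *amyA* 1.64 to 20.7 (median 4.88). The ordering of the cell types differed between the genes: untreated control mycelia held 615 ± 59 RPKM of *agdB* against 35.3 ± 24.6 in conidia, but 0.137 ± 0.0671 RPKM of *amyB* against 27.4 ± 16.3 in conidia. Cell type is confounded with batch and culture age, so these levels stand side by side without a test. Among all genes, the group means of *agdB* lay between percentiles 44.9 and 98.5 in mycelia and those of *amyB* between 31.1 and 71.7 in conidia.

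**Figure D1:**
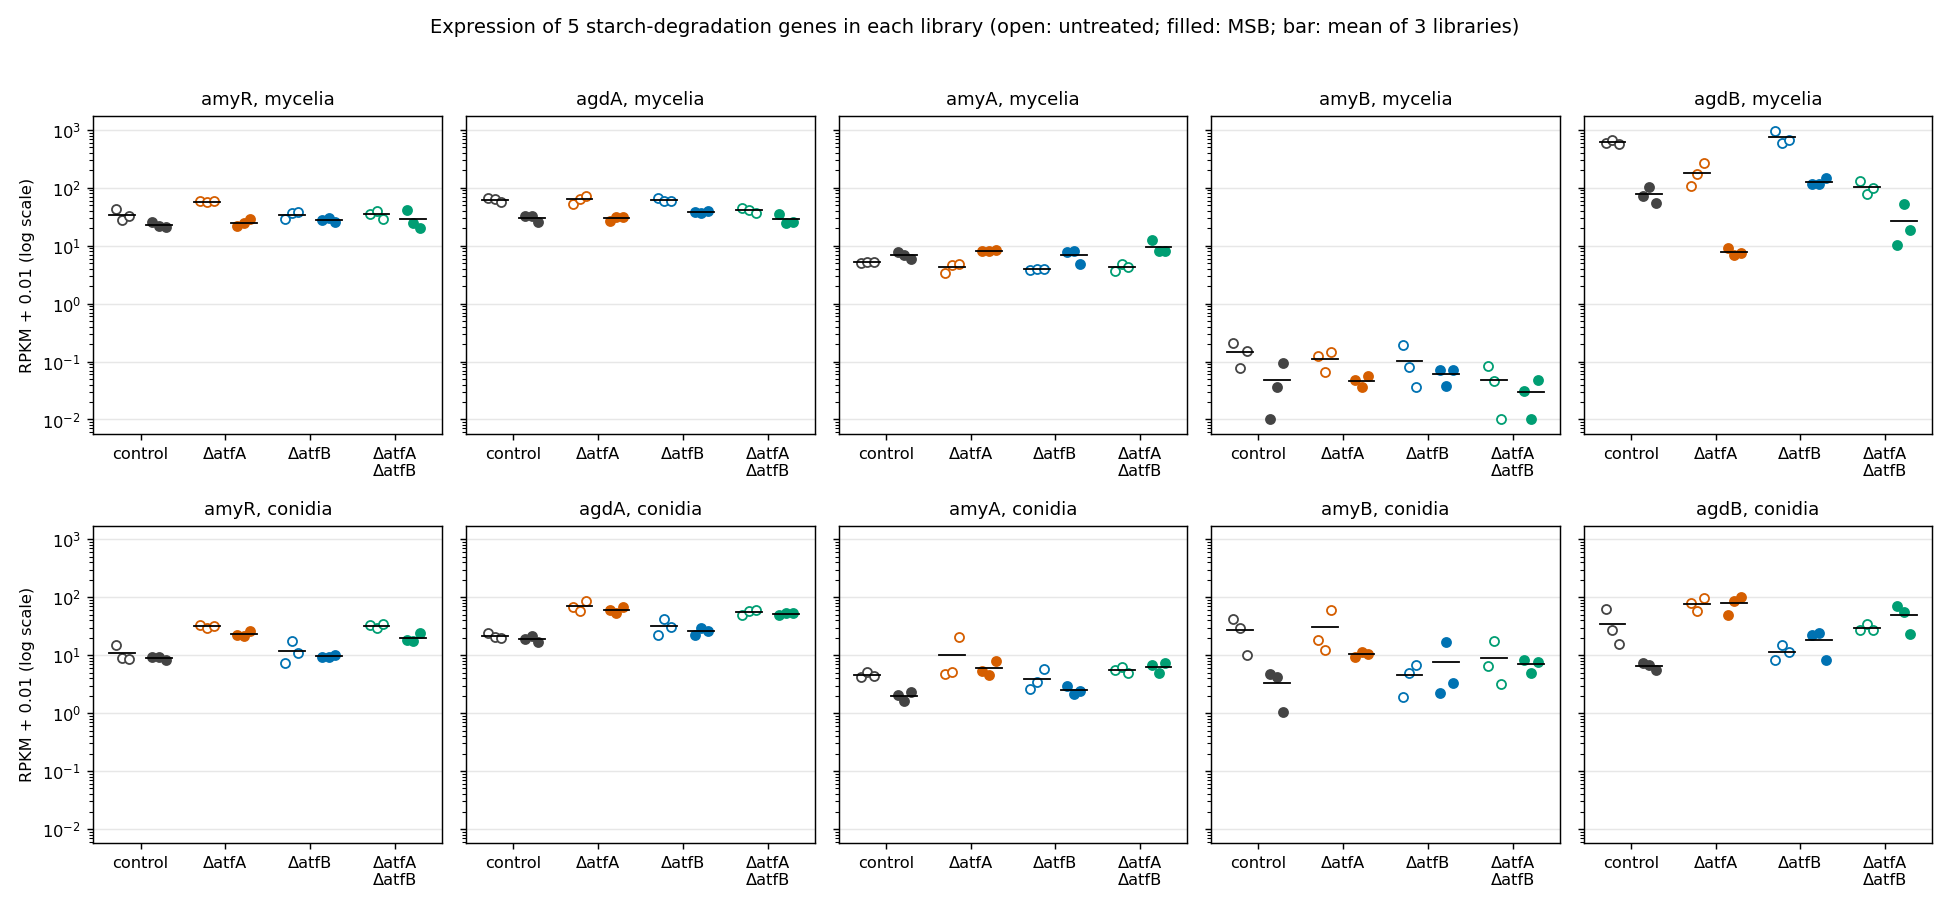
RPKM + 0.01 (log scale) of *amyR*, *agdA*, *amyA*, *amyB* and *agdB* in every library, mycelia above and conidia below. Open points are untreated libraries, filled points MSB libraries and bars the mean of 3 libraries. *agdB* ranges from 6.9 to 974 RPKM in mycelia, and *amyB* stays at or below 0.2 RPKM there but reaches 61.5 RPKM in conidia.

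Replicate spread set how finely the groups could be told apart. The coefficient of variation (SD over mean) of *agdA* was 3.31 to 20.8% in mycelial groups (median 10.1%) and 4.23 to 32.5% in conidial groups (median 12.3%). *amyR* varied by 2.53 to 40.4% (median 14.8%) and 4.15 to 45% (median 10.4%), and *amyA* by 1.33 to 27.5% (median 13.1%) and 10.6 to 89.4% (median 18.5%). Over all tested genes the median per group was 6.28 to 11.2% in mycelia and 11.4 to 22.8% in conidia, so the medians of *amyR* and *amyA* lay above this range in mycelia and that of *amyR* below it in conidia. *agdB* was more variable, at 9.6 to 82.5% (median 26.2%) in mycelia and 13.8 to 69.6% (median 31.6%) in conidia. *amyB* was the most variable member in conidia, at 9.75 to 109.2% (median 59.8%).

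When the 8 groups of a cell type were ordered by mean RPKM, most neighbours in the order overlapped. The same overlap was not counted over all genes. All 7 neighbouring pairs overlapped for *amyA* and *amyB* in conidia, and 6 of 7 for *amyR* in either cell type. For *agdA* 5 of 7 overlapped in mycelia and 6 of 7 in conidia. *agdB* had the fewest overlapping pairs, 4 of 7 in mycelia and 5 of 7 in conidia, by a small margin over the other genes named. In mycelia its order ran from untreated Δ*atfB* (749) and control (615), which overlapped, down through untreated Δ*atfA* (183), Δ*atfB* on MSB (127), untreated Δ*atfA*Δ*atfB* (libraries at 77.8 to 130.5) and control on MSB (77.2), each overlapping the next. Δ*atfA*Δ*atfB* on MSB (27) and Δ*atfA* on MSB (7.80) lay lowest and stood apart from their neighbours. In conidia the order of *agdB* began with Δ*atfA* on MSB (79.6) and untreated (77.5) and ended with untreated libraries labelled Δ*atfB* (11.5) and control on MSB (6.63). The last of these was separate from every other group in the order.

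Over all 34 comparisons, 28 of the 153 tests of members passed both thresholds, 15 of 68 in mycelia and 13 of 85 in conidia. Of all tested genes, 2.66 to 17.5% passed per comparison in mycelia and 0 to 38.8% in conidia. The share of all genes pooled over comparisons was not counted. Whether the members passed more often than genes in general is therefore not shown by these totals. *agdB* accounted for 12 of the 17 comparisons in mycelia and 8 of 17 in conidia. *amyR* passed in 1 mycelial and 0 conidial comparisons, *agdA* in 1 of each, *amyA* in 1 of each and *amyB* in 3 conidial comparisons. In conidia *amyR* passed the p threshold in 5 comparisons, all of them within the fold threshold.

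**Figure D2:**
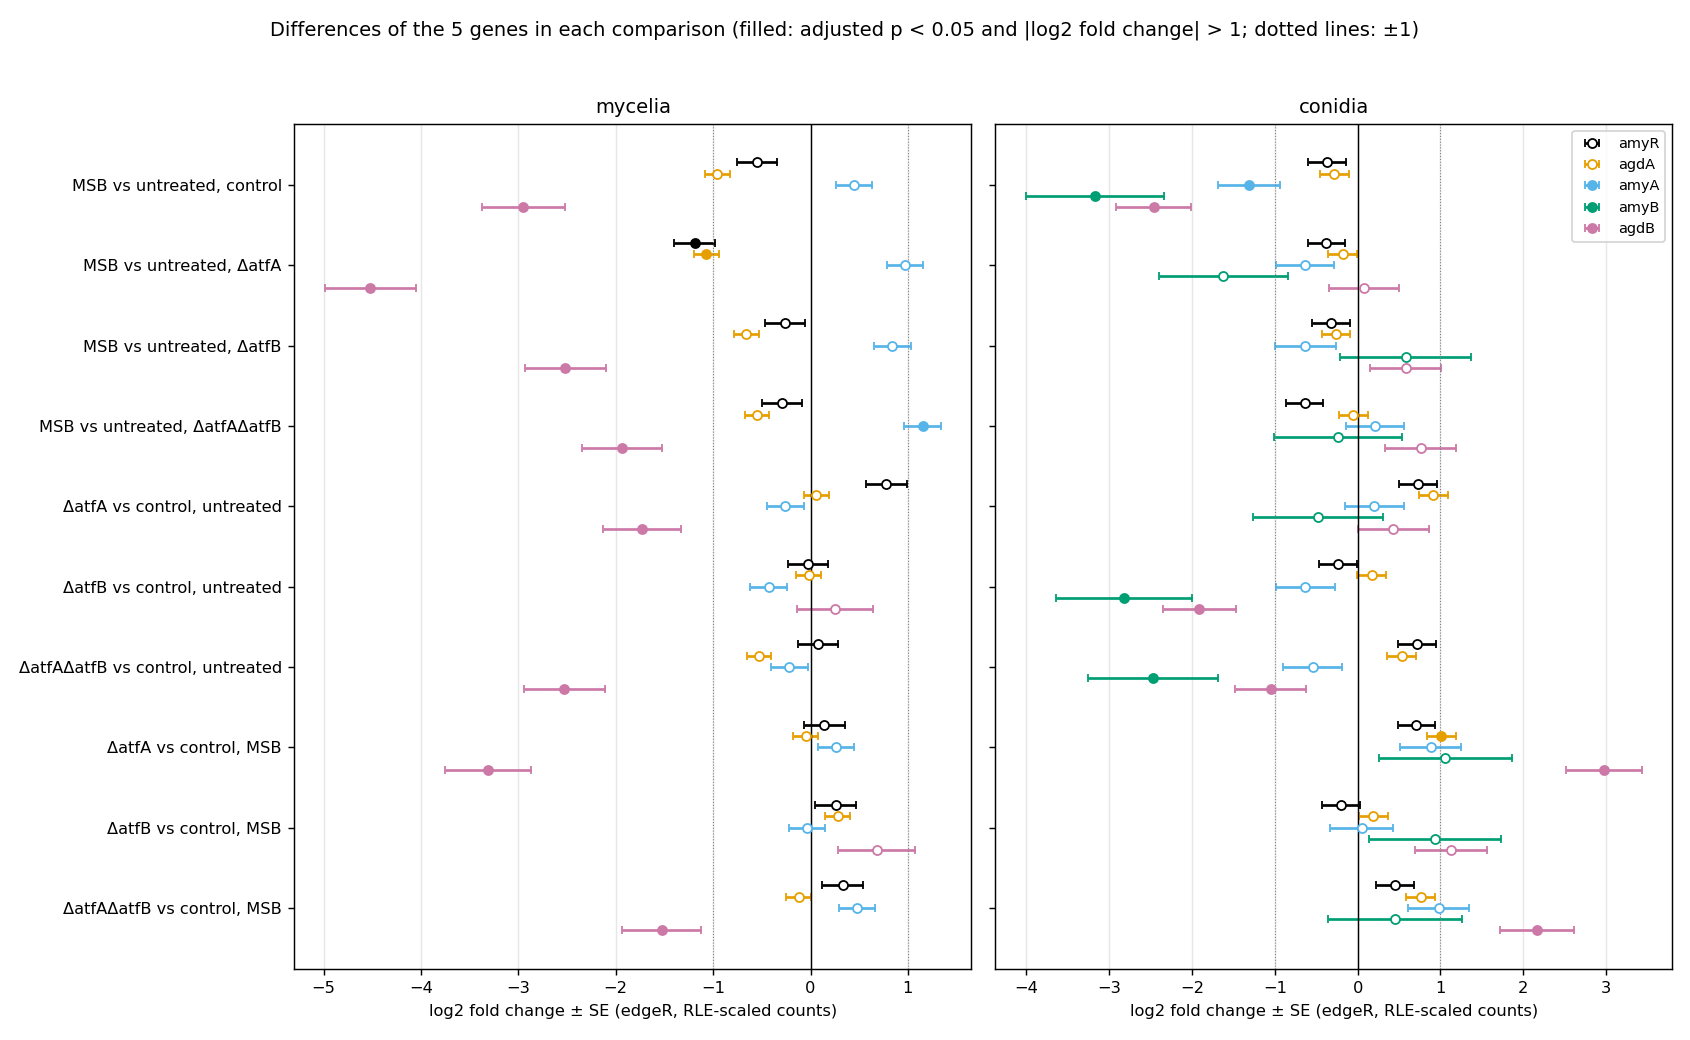
Log2 fold change ± SE (edgeR, RLE-scaled counts) of the 5 genes in the 4 comparisons of MSB with untreated and the 6 of a mutant with the control, for mycelia and conidia. Filled points passed both thresholds and dotted lines mark ±1. In mycelia *agdB* lies at −4.52 to −1.94 in the MSB comparisons, whereas *amyA* lies at 0.45 to 1.15. *amyB* is missing from the mycelial panel because it was not tested.

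The first question was how MSB affected these genes in mycelia. *agdB* was downregulated on MSB in all 4 strains. Control libraries held 603, 679 and 562 RPKM untreated and 73.1, 103.6 and 55 RPKM with MSB (log2 fold change −2.95, SE 0.425, adjusted p = 1.05e-05). The ranges were far apart. In Δ*atfA* they held 107.6, 174 and 266 RPKM untreated and 9.15, 6.90 and 7.37 RPKM on MSB (−4.52, SE 0.464, adjusted p = 7.36e-08). In Δ*atfB* they held 974, 604 and 667 RPKM and then 117, 116 and 147 RPKM (−2.52, SE 0.417, adjusted p = 5.73e-05). Every MSB library was thus below every untreated library of its strain, and Δ*atfA* reached the lowest level of all. Δ*atfA*Δ*atfB* libraries held 130, 77.8 and 97.7 RPKM untreated and 10.1, 52.2 and 18.7 RPKM on MSB (−1.94, SE 0.411, adjusted p = 0.000708). Here too the groups did not overlap, although replicate 2 on MSB was well above the others. Without it the log2 fold change was −2.86, the lowest value on leaving out a library.

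*agdA* also had lower levels on MSB in every strain, by much less. Its control libraries held 66.2, 63 and 55.8 RPKM untreated and 32.9, 32.7 and 26.2 on MSB (log2 fold change −0.96, SE 0.128, adjusted p = 3.77e-06), just inside the fold threshold and beyond it without untreated replicate 3 (−1.03), MSB replicate 1 (−1.01) or MSB replicate 2 (−1.01). Only in Δ*atfA* was it beyond the threshold, with 53.5, 65.1 and 70.9 RPKM untreated and 26.3, 31.3 and 31.3 on MSB (−1.07, SE 0.128, adjusted p = 6.19e-07). The strains therefore lay on both sides of the threshold by a small margin, and the call in Δ*atfA* was lost without untreated replicate 3 (−0.98) or MSB replicate 1 (−1.0). The values were −0.66 (SE 0.127, adjusted p = 0.000259) in Δ*atfB* and −0.55 (SE 0.127, adjusted p = 0.00155) in Δ*atfA*Δ*atfB*. In all 4 strains every MSB library lay below every untreated one.

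*amyR*, the regulator, was downregulated on MSB in Δ*atfA* mycelia, from 58.3, 56.2 and 59 to 21.7, 24.6 and 28.9 RPKM (−1.19, SE 0.210, adjusted p = 7.32e-05). In the control it had 42.8, 27.9 and 32.7 RPKM untreated and 25.2, 22.1 and 21 on MSB (−0.55, SE 0.209, adjusted p = 0.0355). In Δ*atfB* (−0.26, adjusted p = 0.313) and Δ*atfA*Δ*atfB* (−0.29, adjusted p = 0.269) the groups overlapped. *amyA* went the other way from its cluster neighbours. It was upregulated on MSB in Δ*atfA*Δ*atfB*, from 3.72, 4.75 and 4.36 to 12.7, 8.18 and 8.09 RPKM (1.15, SE 0.187, adjusted p = 4.48e-05), a call that was lost without MSB replicate 1 (0.89). In Δ*atfA* (0.97, SE 0.189, adjusted p = 0.000205) and Δ*atfB* (0.84, SE 0.187, adjusted p = 0.00104) its change stayed within the fold threshold, although it passed without untreated Δ*atfA* replicate 2 (1.02) or 3 (1.06) and without Δ*atfB* MSB replicate 3 (1.05), and in the control it was 0.45 (SE 0.186, adjusted p = 0.0521). Every MSB library was nevertheless above every untreated library in each strain.

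Of the 4 members tested in mycelia, 1 was called in the control (*agdB*), against 14% of all tested genes. In Δ*atfA* 3 were called against 17.5%, in Δ*atfB* 1 against 13.7% and in Δ*atfA*Δ*atfB* 2 against 12.7%. Their median log2 fold change was −0.76, −1.13, −0.46 and −0.42 in this order of strains, where the median of all genes was −0.01 to 0.00. Conidiophore markers (*brlA*, *abaA*, *ivoB*, *yA* and *wA*, 5 of 5 detected in the untreated groups) moved with MSB in the same mycelial samples. Their sum was 117 to 220 RPKM untreated and 27.1 to 37.5 on MSB in the control, 186 to 466 and 13.7 to 16.8 in Δ*atfA*, 314 to 457 and 67.1 to 129 in Δ*atfB*, and 125 to 240 and 16 to 21.5 in Δ*atfA*Δ*atfB*. The part of this difference in the values of *agdB* was not tested, and in bulk samples fewer cells of a type and less RNA per cell cannot be told apart.

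Whether the deletions changed expression in mycelia was the next comparison. *agdB* was downregulated in both strains that lack *atfA*. Untreated, the 3 Δ*atfA* libraries (107.6, 174 and 266 RPKM) and the 3 Δ*atfA*Δ*atfB* libraries (77.8 to 130) lay below all control libraries (562 to 679). The log2 fold changes were −1.73 (SE 0.405, adjusted p = 0.00182) and −2.53 (SE 0.417, adjusted p = 0.000132). On MSB Δ*atfA* was lower than the control by a log2 fold change of −3.31 (SE 0.442, adjusted p = 9.15e-06), and Δ*atfA*Δ*atfB* by −1.53 (SE 0.407, adjusted p = 0.0114). The last of these calls was lost without control MSB replicate 2 (−1.26, adjusted p = 0.0528), Δ*atfA*Δ*atfB* MSB replicate 1 (−1.13, adjusted p = 0.0511) or replicate 3 (−1.31, adjusted p = 0.0571), and without Δ*atfA*Δ*atfB* MSB replicate 2 it was −2.44. Fitted with only these groups it was not called (adjusted p = 0.109). On MSB the median sums of the conidiophore markers, 81.5 RPKM in Δ*atfB*, 35.1 in the control, 20.5 in Δ*atfA*Δ*atfB* and 14 in Δ*atfA*, stood in the same order as the *agdB* means. Untreated, the sums in Δ*atfA* and Δ*atfA*Δ*atfB* (medians 405.9 and 224) were above the control median (130), where *agdB* was lower. The part of the markers in these differences was not tested.

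Δ*atfB* mycelia were not shown to differ from the control in *agdB*, with 0.25 (SE 0.394, adjusted p = 0.675) untreated and 0.68 (SE 0.398, adjusted p = 0.243) on MSB. Against Δ*atfB*, Δ*atfA*Δ*atfB* mycelia were lower by −2.79 (SE 0.421, adjusted p = 2.95e-05) untreated and by −2.21 (SE 0.415, adjusted p = 0.000285) on MSB. Against Δ*atfA* they were at −0.80 (SE 0.397, adjusted p = 0.147) untreated and were higher on MSB, at 1.78 (SE 0.422, adjusted p = 0.0112). That increase rested on replicate 2, without which it was 0.87 (adjusted p = 0.183). It was also lost without Δ*atfA* MSB replicate 2 (1.69, adjusted p = 0.0686) and when only these groups were fitted (adjusted p = 0.141). The study calls a gene AA when it is downregulated both in Δ*atfA* and in Δ*atfA*Δ*atfB* against the control and in Δ*atfA*Δ*atfB* against Δ*atfB*, with no downregulation in the comparisons that differ by *atfB*. By that definition *agdB* was an AA gene in mycelia under both treatments. On MSB this rests partly on the call of Δ*atfA*Δ*atfB* against the control, which was lost on leaving out some libraries. The study itself lists *agdB* among the genes that depended on AtfB and in no culture on AtfA. The reason for this difference was not tested.

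The cluster genes changed little between strains in mycelia, and none of them passed both thresholds. *amyR* had its highest mycelial level in untreated Δ*atfA*, 56.2 to 59 RPKM against 27.9 to 42.8 in the control (0.78, SE 0.207, adjusted p = 0.00491). It was lower in untreated Δ*atfA*Δ*atfB* than in Δ*atfA*, at −0.70 (SE 0.207, adjusted p = 0.0161). *agdA* was at 36.7 to 45.3 RPKM in untreated Δ*atfA*Δ*atfB* against 55.8 to 66.2 in the control (−0.53, SE 0.126, adjusted p = 0.00327), with no overlap. For *amyA* the 6 differences from the control ran from −0.43 to 0.48, with a smallest adjusted p of 0.071.

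Against the control, 1 of 4 members was called in untreated Δ*atfA* (12.4% of all tested genes), 0 in untreated Δ*atfB* (4.22%) and 1 in untreated Δ*atfA*Δ*atfB* (7%). On MSB it was 1 in Δ*atfA* (8.82%), 0 in Δ*atfB* (3.05%) and 1 in Δ*atfA*Δ*atfB* (4.72%). Between Δ*atfA*Δ*atfB* and Δ*atfA*, 0 of 4 were called untreated (6.73%) and 1 on MSB (2.66%), and between Δ*atfA*Δ*atfB* and Δ*atfB*, 1 untreated (11%) and 1 on MSB (10.2%). Each called member was *agdB*.

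The effect of MSB on *agdB* differed between Δ*atfA* and control mycelia. The difference of the log2 fold changes was −1.58 (SE 0.572, adjusted p = 0.0397), the only 1 of 4 members called where 10.6% of all genes were. The margin was small. The call was lost on leaving out any of 9 of the 12 libraries, the exceptions being control MSB replicate 3, untreated Δ*atfA* replicate 1 and Δ*atfA* MSB replicate 1, and the value without a library ran from −1.84 to −1.21. For Δ*atfB* (0 of 4 called, 4.70% of all genes) the interaction was 0.43 (SE 0.558, adjusted p = 0.649), and for Δ*atfA*Δ*atfB* (0 of 4 called, 4.05%) it was 1.01 (SE 0.562, adjusted p = 0.246).

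**Figure D3:**
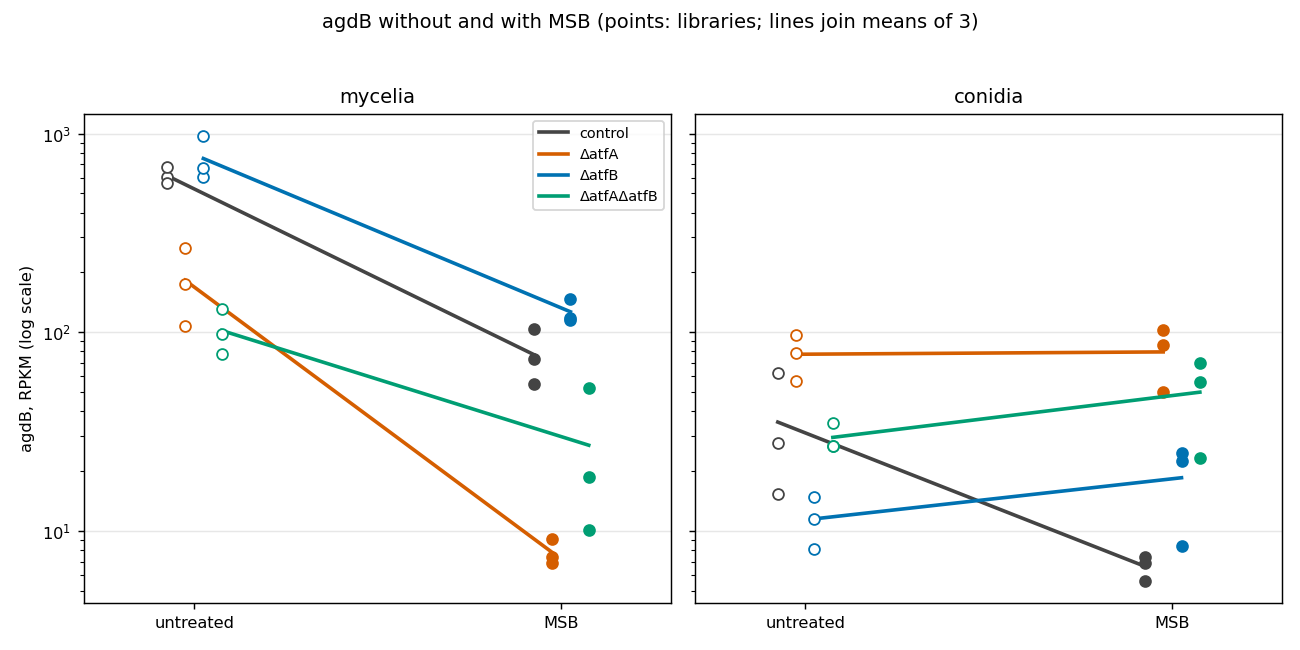
RPKM (log scale) of *agdB* without and with MSB in mycelia and conidia, where points are libraries and lines join the means of 3 libraries of a strain. All 4 lines fall in mycelia. In conidia the control falls from 35.3 to 6.63 RPKM, while the means of the other strains are 77.5 and 79.6 (Δ*atfA*), 11.5 and 18.5 (labelled Δ*atfB*), and 29.5 and 49.9 (Δ*atfA*Δ*atfB*).

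In conidia, members were called on MSB in the control strain only, where *agdB*, *amyB* and *amyA* were downregulated. Control libraries held 62.7, 27.8 and 15.4 RPKM of *agdB* untreated and 7.39, 6.90 and 5.62 on MSB (log2 fold change −2.46, SE 0.452, adjusted p = 0.000656). For *amyB* they held 42.5, 29.5 and 10.1 RPKM untreated and 4.68, 4.20 and 1.03 on MSB (−3.17, SE 0.832, adjusted p = 0.00775). In both genes every MSB library lay below every untreated one, and the highest untreated library was 4.08 times the lowest for *agdB* and 4.20 times for *amyB*. In batch 1 alone the values were −2.75 for *agdB* and −3.11 for *amyB*. *amyA* fell from 4.12, 5.04 and 4.34 to 2.05, 1.64 and 2.3 RPKM (−1.31, SE 0.376, adjusted p = 0.0129, batch 1 alone −1.41). That call was lost without untreated replicate 2 (−1.13, adjusted p = 0.0598) or MSB replicate 3 (−1.20, adjusted p = 0.0598). *amyR* (−0.37, adjusted p = 0.231) and *agdA* (−0.28, adjusted p = 0.230) were not called.

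None of the 5 members was called on MSB in the mutants' conidia. *agdB* held 78.8, 57.1 and 96.5 RPKM untreated and 50.2, 86.4 and 102.2 on MSB in Δ*atfA* (0.08, SE 0.420, adjusted p = 0.908). It held 26.8, 35 and 26.9 and then 70.2, 56.2 and 23.4 RPKM in Δ*atfA*Δ*atfB* (0.76, SE 0.426, adjusted p = 0.349). In libraries labelled Δ*atfB* it held 8.11, 14.9 and 11.5 and then 22.6, 24.6 and 8.37 RPKM (0.58, SE 0.430, adjusted p = 0.382). In Δ*atfA*Δ*atfB* and in those labelled Δ*atfB*, MSB replicates 1 and 2 (batch 1) lay above the untreated mean and replicate 3 (batch 2) below it. In batch 1 alone the gene passed both thresholds in both strains (1.11 with adjusted p = 0.0412, and 1.03 with adjusted p = 0.0491).

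For *amyB* the libraries of Δ*atfA* held 18.5, 12.1 and 61.5 RPKM untreated and 9.27, 11.3 and 10.4 on MSB (−1.62, SE 0.777, adjusted p = 0.110). Untreated replicate 3 also held 20.7 RPKM of *amyA* where replicates 1 and 2 held 4.82 and 5.05. It held the highest value of any conidial library in both amylase genes, and it is the 1 library of batch 2 in its group. In batch 1 alone the *amyB* value was −0.52.

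Of the 5 members, 3 were called on MSB in control conidia (14.6% of all tested genes), and 0 in Δ*atfA* (15.1%), under the label Δ*atfB* (4.27%) and in Δ*atfA*Δ*atfB* (1.24%). Their median log2 fold change in the control was −1.31, with all 5 negative, beside −0.01 over all genes. It was −0.38 in Δ*atfA*, −0.26 in those labelled Δ*atfB* and −0.05 in Δ*atfA*Δ*atfB*. The conidiophore markers were higher on MSB in conidia of every strain, with no overlap of the sums. They summed to 525 to 1057 RPKM untreated and 1580 to 1620 on MSB in the control, 320 to 558 and 630 to 1547 in Δ*atfA*, 738 to 878 and 1206 to 1633 under the label Δ*atfB*, and 575 to 752 and 777 to 1340 in Δ*atfA*Δ*atfB*. Their part in these values was not tested.

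The difference of the MSB effect itself was called for *agdB* in 2 strains. In Δ*atfA* against control it was 2.53 (SE 0.610, adjusted p = 0.0132, batch 1 alone 2.80) and in Δ*atfA*Δ*atfB* against control 3.22 (SE 0.620, adjusted p = 0.00631, batch 1 alone 3.85). Both stayed called on leaving out any of the 12 libraries, at 1.88 to 2.95 and 2.58 to 3.59. For the libraries labelled Δ*atfB* it was 3.04 (SE 0.622, adjusted p = 0.0930), which was not called, but it was without untreated control replicate 3 (3.41, adjusted p = 0.0188), in batch 1 alone (3.78, adjusted p = 0.0039) and with DESeq2 (adjusted p = 0.000605). *amyA* was called for Δ*atfA* without untreated Δ*atfA* replicate 3 (1.46, adjusted p = 0.0154, against 0.68 with it) and for Δ*atfA*Δ*atfB* without untreated control replicate 3 (1.74, adjusted p = 0.0409, against 1.52). All these interactions share the control libraries. *amyB* had 1.55 (SE 1.10, adjusted p = 0.365), 2.93 (SE 1.12, adjusted p = 0.102) and 3.75 (SE 1.14, adjusted p = 0.247) in the same order. The interaction called 1 of 5 members with Δ*atfA* (8.20% of all genes), 1 of 5 with Δ*atfA*Δ*atfB* (6.28%) and 0 of 5 with the label Δ*atfB* (0% of 10143 genes by edgeR, of which 1053 had an unadjusted p below 0.05, while DESeq2 called 31 higher and 12 lower and limma 0).

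Between strains, *agdB* was higher than in control conidia on MSB in both strains that lack *atfA*, the reverse of its order in mycelia. Δ*atfA* libraries (50.2, 86.4 and 102.2 RPKM) and Δ*atfA*Δ*atfB* libraries (70.2, 56.2 and 23.4) all lay above the control libraries (7.39, 6.90 and 5.62). The log2 fold changes were 2.97 (SE 0.459, adjusted p = 2.72e-05, batch 1 alone 2.58) and 2.17 (SE 0.446, adjusted p = 0.000484, batch 1 alone 2.43). Leaving out a library moved them to 2.53 to 3.27 and 1.88 to 2.49, and both stayed called. *agdA* was upregulated in Δ*atfA* on MSB, at 60.5, 53.2 and 68.3 RPKM against 18.8, 21.3 and 16.7 (1.01, SE 0.175, adjusted p = 9.93e-05). This sat on the fold threshold and was within it in batch 1 alone (0.83), with only these groups fitted (1.00), and without control MSB replicate 3 (0.87), Δ*atfA* MSB replicate 1 (0.97) or replicate 3 (0.95). *amyA* in Δ*atfA*Δ*atfB* was at 0.98 (SE 0.370, adjusted p = 0.0311) and was called without control MSB replicate 1 (1.12) or Δ*atfA*Δ*atfB* MSB replicate 2 (1.07) or 3 (1.08). In conidia labelled Δ*atfB* the *agdB* difference on MSB was 1.13 (SE 0.436, adjusted p = 0.179), with no overlap. It was called in batch 1 alone (1.39, adjusted p = 0.0214) and with only these groups fitted (1.08, adjusted p = 0.0163).

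In untreated conidia, libraries labelled Δ*atfB* had less of both variable genes. They held 8.11, 14.9 and 11.5 RPKM of *agdB* against 62.7, 27.8 and 15.4 in the control (−1.91, SE 0.441, adjusted p = 0.00796, batch 1 alone −2.38). They held 1.92, 4.94 and 6.81 RPKM of *amyB* against 42.5, 29.5 and 10.1 (−2.82, SE 0.821, adjusted p = 0.0287, batch 1 alone −3.77). No libraries overlapped. Without untreated control replicate 1, *agdB* was at −1.26 and no longer called (adjusted p = 0.0739), nor was it with only these groups fitted (adjusted p = 0.0582). The *amyB* call was lost without control replicate 1 (−2.39, adjusted p = 0.115) or 2 (−2.81, adjusted p = 0.0591) and without replicate 1 (−2.42, adjusted p = 0.109) or 2 (−2.71, adjusted p = 0.105) of those labelled Δ*atfB*.

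Untreated Δ*atfA*Δ*atfB* conidia had lower scaled values of *amyB* (−2.47, SE 0.788, adjusted p = 0.0109, batch 1 alone −2.45) and of *agdB* (−1.05, SE 0.429, adjusted p = 0.0404, batch 1 alone −1.43), although in RPKM both genes overlapped the control. *agdB* held 26.8, 35 and 26.9 RPKM against 62.7, 27.8 and 15.4, and on unscaled RPKM its difference was −0.03 (adjusted p = 0.956, limma), which was not called. The call was also lost under the replicate block (−1.03, adjusted p = 0.0522), without control replicate 1 (−0.41, adjusted p = 0.414) or without any 1 of the 3 Δ*atfA*Δ*atfB* libraries (−1.15 to −0.95), and with only these groups fitted (−0.99). *amyB* was not called on unscaled RPKM (−1.71, adjusted p = 0.0551) or without Δ*atfA*Δ*atfB* replicate 3 (−2.09, adjusted p = 0.0532). Against untreated Δ*atfA* (78.8, 57.1 and 96.5 RPKM), *agdB* was downregulated in Δ*atfA*Δ*atfB* (−1.49, SE 0.430, adjusted p = 0.0181, batch 1 alone −1.20). This was lost without Δ*atfA* replicate 3 (−1.06, adjusted p = 0.116) and without Δ*atfA*Δ*atfB* replicate 1 (−1.39, adjusted p = 0.0557) or 3 (−1.60, adjusted p = 0.0635).

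By the study's definition, *agdB* was in the *atfB*-dependent class BB in untreated conidia, since it was downregulated against control under the label Δ*atfB* and in Δ*atfA*Δ*atfB*, and in Δ*atfA*Δ*atfB* against Δ*atfA*. Each of those 3 calls was lost on leaving out at least 1 library, and the first rests on a label that the *atfB* reads did not bear out. In untreated Δ*atfA* conidia, *agdB* (0.43, SE 0.428, adjusted p = 0.389) and *amyB* (−0.48, SE 0.783, adjusted p = 0.609) were not called. By limma on unscaled RPKM *agdB* was called as higher (1.34, adjusted p = 0.00998) and *amyB* was at 0.04 (adjusted p = 0.968). Without untreated control replicate 1, the highest control library, *agdB* was called as higher (1.07, adjusted p = 0.0361). In batch 1 alone, which leaves out the Δ*atfA* library with 61.5 RPKM, *amyB* was called as lower (−2.04, adjusted p = 0.0137).

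*amyR* and *agdA* had higher levels in untreated conidia that lack *atfA*, by less than the fold threshold on scaled counts. *amyR* held 33.1, 29.6 and 31.7 RPKM in untreated Δ*atfA* and 33, 29.3 and 34.7 in untreated Δ*atfA*Δ*atfB*, against 15.1, 8.80 and 8.59 in the control. No library overlapped. The scaled log2 fold changes were 0.73 (SE 0.226, adjusted p = 0.00868) and 0.72 (SE 0.227, adjusted p = 0.00983), and on unscaled RPKM they were 1.58 and 1.62. For *agdA* they were 0.91 (SE 0.175, adjusted p = 0.000167) and 0.53 (SE 0.174, adjusted p = 0.0135) scaled, and 1.71 and 1.39 unscaled, from 69.1, 58.3 and 85.8 RPKM in Δ*atfA* and 49.7, 58.3 and 61.3 in Δ*atfA*Δ*atfB* against 24.4, 20.7 and 19.5. On unscaled RPKM all 4 passed both thresholds. So did the scaled values of *amyR* (1.08 and 1.07) and of *agdA* in Δ*atfA* (1.04) without untreated control replicate 1, and that of *agdA* in Δ*atfA* without Δ*atfA* replicate 2 (1.03). In batch 1 alone the scaled values were smaller. They were 0.60 (adjusted p = 0.0779) and 0.53 (adjusted p = 0.118) for *amyR* in Δ*atfA* and Δ*atfA*Δ*atfB*. For *agdA* they were 0.70 (adjusted p = 0.00918) and 0.39 (adjusted p = 0.11). The median gene differed from the control by 0.04 and 0.06 on scaled counts in these untreated strains.

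Against control conidia, 0 of 5 members were called in untreated Δ*atfA* (38.8% of all tested genes), 2 in those labelled Δ*atfB* (4.48%) and 2 in Δ*atfA*Δ*atfB* (35.5%). On MSB it was 2 in Δ*atfA* (27.9%), 0 in those labelled Δ*atfB* (1.97%) and 1 in Δ*atfA*Δ*atfB* (30%). The members' median log2 fold change on MSB was 1.01 in Δ*atfA* and 0.76 in Δ*atfA*Δ*atfB*, beside 0.08 and 0.07 over all genes. In RPKM all libraries of all 5 genes lay above the control. On that scale the median gene was itself 0.72 and 0.76 higher, and the share of all genes without overlap was not counted. On scaled counts *amyR* (0.45, adjusted p = 0.104) and *amyB* (0.45, adjusted p = 0.654) in Δ*atfA*Δ*atfB* were not called. Between Δ*atfA*Δ*atfB* and Δ*atfA*, 1 of 5 was called untreated (11.5%) and 0 on MSB (1.11%). Between Δ*atfA*Δ*atfB* and the libraries labelled Δ*atfB*, 0 of 5 were called untreated (29.9%) and 0 on MSB (24%). Near the thresholds there were *amyB* in untreated Δ*atfA*Δ*atfB* against Δ*atfA* (−1.99, SE 0.805, adjusted p = 0.0773) and, against the label Δ*atfB*, *amyR* untreated (0.96, SE 0.226, adjusted p = 0.00137), *amyA* on MSB (0.93, SE 0.362, adjusted p = 0.0423) and *agdB* on MSB (1.04, SE 0.427, adjusted p = 0.0540). *amyB* was called without untreated Δ*atfA* replicate 2 (−2.53) or Δ*atfA*Δ*atfB* replicate 2 (−2.77), *amyR* without replicate 2 of either strain (1.28 and 1.06), *amyA* without MSB replicate 1 of those labelled Δ*atfB* (1.16), and *agdB* without Δ*atfA*Δ*atfB* MSB replicate 3 (1.34).

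The genes that flank the cluster were examined next, and 2 of 4 were called in mycelia in some comparison of a mutant with the control. Each such comparison called 3.05 to 12.4% of all tested genes in mycelia and 1.97 to 38.8% in conidia. The share of all genes called in any of these comparisons was not counted, so the count of flanking genes has no matching share. AN2019, the gene after *amyA*, was downregulated in untreated Δ*atfA* mycelia, from 17.5 ± 2.22 to 2.51 ± 0.904 RPKM (log2 fold change −2.73, SE 0.224, adjusted p = 6.47e-09). In the same comparison *amyA* stood at −0.26 (adjusted p = 0.290). In conidia AN2019 went the other way, from 2.34 ± 0.646 RPKM in the untreated control to 17 ± 8.35 in Δ*atfA* (1.97, SE 0.314, adjusted p = 2.28e-05) and 20.5 ± 4.06 in Δ*atfA*Δ*atfB* (2.33, SE 0.316, adjusted p = 3.53e-06). AN2020, the next gene, was lower in Δ*atfA* on MSB in both cell types, at −1.29 (SE 0.220, adjusted p = 0.000147) in mycelia and −1.19 (SE 0.196, adjusted p = 5.17e-05) in conidia. On the other side, AN2015, next to *amyR*, was downregulated only in Δ*atfA*Δ*atfB* conidia on MSB among these comparisons (−1.20, SE 0.222, adjusted p = 0.000175), and AN2014 was called in none. AN8952, beside *agdB*, did not exceed a group mean of 0.142 RPKM, and AN3403, beside *amyB*, did not exceed 0.712. AN3401 and AN8954 were not analysed here.

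**Figure D4:**
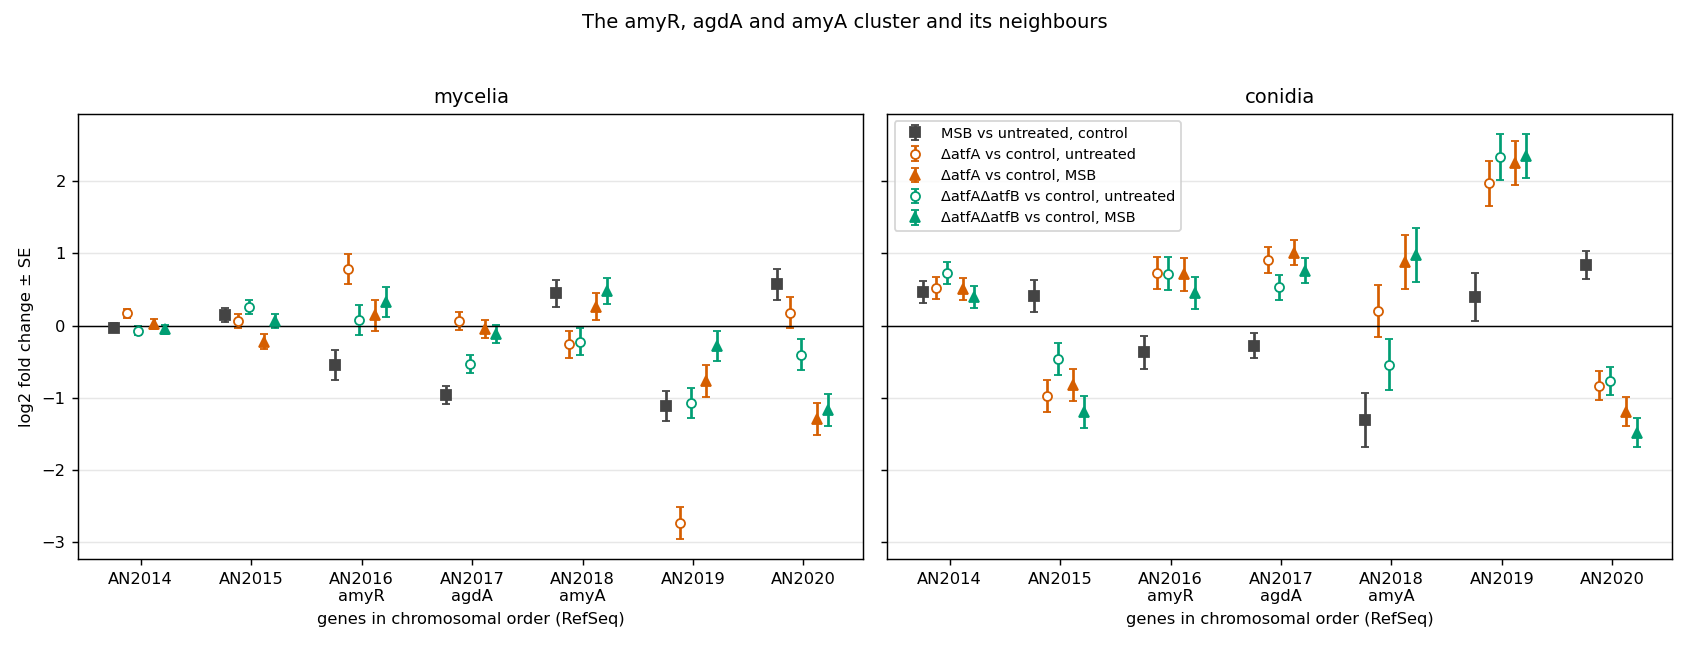
Log2 fold change ± SE of *amyR*, *agdA*, *amyA* and 4 neighbouring genes in chromosomal order, for MSB against untreated in the control (squares) and for Δ*atfA* (orange) and Δ*atfA*Δ*atfB* (green) against the control, untreated (open circles) or on MSB (triangles). AN2019 lies at −2.73 in untreated Δ*atfA* mycelia and at 1.97 to 2.35 in the 4 mutant comparisons in conidia, while the 3 cluster genes stay between −1.31 and 1.01 in all comparisons shown.

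The other amylolytic genes were taken as a list of 12: *amyC*, an α-amylase-like fragment, the putative α-amylase genes *amyD* to *amyG*, the putative α-glucosidase genes *agdC*, *agdE*, *agdF* and *agdG*, the putative glucoamylase genes *glaA* and *glaB*, and a starch monooxygenase of family AA13. In mycelia 11 were tested, *glaB* being too low. On MSB 5 of 11 were downregulated in the control and 0 upregulated (median log2 fold change −1.06). In Δ*atfA* it was 3 and 1 (−0.53), in Δ*atfB* 5 and 0 (−0.96) and in Δ*atfA*Δ*atfB* 2 and 1 (−0.43). Of all tested genes 14%, 17.5%, 13.7% and 12.7% were called in this order of strains. *agdE* was downregulated in all 4 strains, from 21.5 ± 2.41 to 6.10 ± 0.470 RPKM in the control (−1.77, SE 0.232, adjusted p = 3.31e-06). *glaA* fell in the control (1.61 ± 0.177 to 0.284 ± 0.176 RPKM), in Δ*atfB* and in Δ*atfA*Δ*atfB*, but in Δ*atfA* it was already at 0.211 ± 0.0512 RPKM untreated. *agdF* fell from 1.09 ± 0.327 to 0.132 ± 0.0353 RPKM and the AA13 gene from 0.318 ± 0.104 to 0.0170 ± 0.0295 in the control, both at low levels.

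In untreated Δ*atfA* mycelia, 5 of these 11 genes were downregulated and 2 upregulated against the control (12.4% of all tested genes called). *amyD*, with a predicted GPI anchor, fell from 34.2 ± 1.12 to 5.72 ± 0.189 RPKM (−2.55, SE 0.110, adjusted p = 1.27e-12), yet it stood at 24.3 ± 1.38 RPKM in Δ*atfA*Δ*atfB*, 2.12 above Δ*atfA* on the log2 scale (SE 0.109, adjusted p = 2.31e-11). *glaA* had the same form, with 0.211 ± 0.0512 RPKM in Δ*atfA* and 1.57 ± 0.204 in Δ*atfA*Δ*atfB*. *agdG* fell in both strains, from 34.8 ± 5.44 to 9.56 ± 2.83 and 13.6 ± 1.52 RPKM, and was AA like *agdB*, as was *agdF*. The AA13 gene met the same definition, but less firmly. It had 2.24 RPKM in untreated Δ*atfB* against 0.318 in the control, and the class uses the comparison with that high group. Its call in Δ*atfA* (−1.96, adjusted p = 0.0482, libraries overlapping) was lost with TMM (adjusted p = 0.0514) and with DESeq2 (adjusted p = 0.0641). In untreated Δ*atfA*Δ*atfB* 4 of 11 were downregulated and 0 upregulated (7% of all tested genes called), and in untreated Δ*atfB* 0 and 1 (4.22%). On MSB 0 of 11 were called in Δ*atfA* (8.82%) and in Δ*atfA*Δ*atfB* (4.72%), and in Δ*atfB* (3.05%) 2 were upregulated, *agdF* and *agdG*.

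In conidia all 12 were tested. On MSB *agdC* had the largest fold change of the 12 in the control, from 281 ± 203 to 27.4 ± 8.47 RPKM in the control (−3.59, SE 0.614, adjusted p = 0.000410), and it was downregulated in the conidia of all 4 strains (−3.67 to −1.98). Its mycelial group means stayed between 9.24 and 15.3 RPKM and was not called on MSB. In control conidia 4 of 12 fell on MSB (*agdC*, *amyD*, *amyG* and *glaA*) and 0 rose, while in Δ*atfA* 4 rose and 2 fell. In those labelled Δ*atfB* 1 rose and 3 fell, and in Δ*atfA*Δ*atfB* 0 rose and 1 fell. Of all tested genes 14.6%, 15.1%, 4.27% and 1.24% were called in this order of strains. *amyD* was nearly lost without *atfA*, with 18.8 ± 0.828 RPKM in untreated control conidia, 1.69 ± 0.709 in Δ*atfA* (−4.36, SE 0.372, adjusted p = 7.80e-09) and 0.996 ± 0.352 in Δ*atfA*Δ*atfB* (−5.07, SE 0.389, adjusted p = 1.64e-09). *glaA* rose instead, from 13 ± 1.26 to 94.3 ± 54.3 RPKM in untreated Δ*atfA* (1.97, SE 0.300, adjusted p = 1.32e-05). *amyC* rose from 0.724 ± 0.187 to 2.74 ± 0.333 RPKM (1.15, SE 0.355, adjusted p = 0.00866) and *amyF* from 0.197 ± 0.0820 to 2.14 ± 0.429. Against the control, 3 of 12 rose and 1 fell in untreated Δ*atfA* (38.8% of all tested genes called), and 4 rose and 2 fell in untreated Δ*atfA*Δ*atfB* (35.5%). On MSB it was 5 and 1 (27.9%), and 5 and 2 (30%). In the libraries labelled Δ*atfB* 0 rose and 1 fell untreated (4.48%), and 1 rose and 0 fell on MSB (1.97%).

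**Figure D5:**
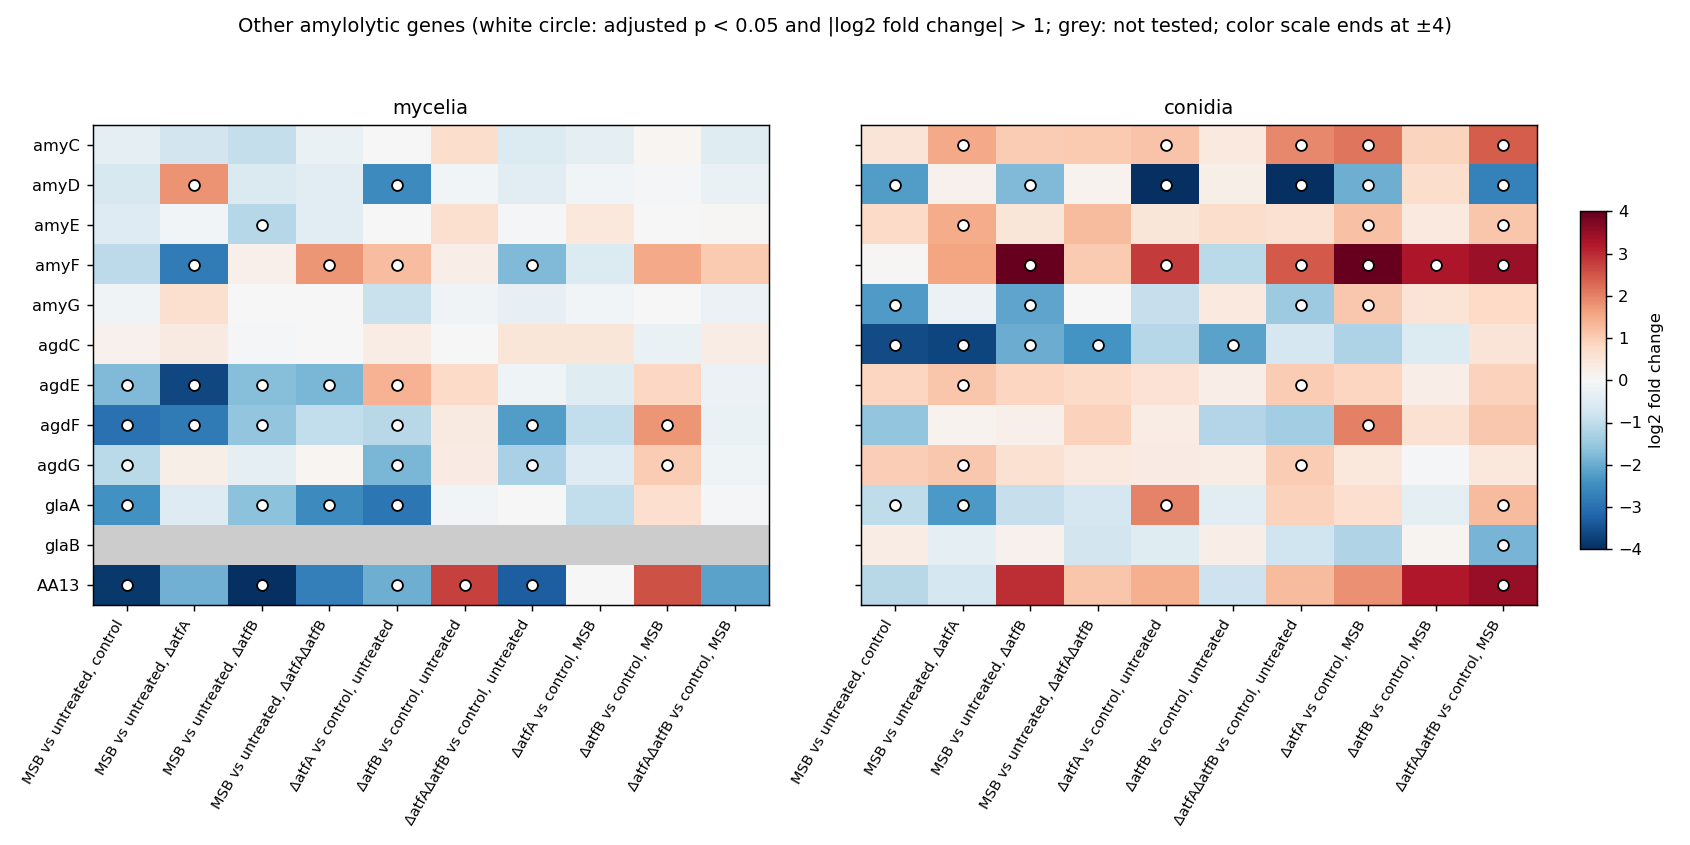
Log2 fold change of 12 other amylolytic genes (rows) in the comparisons of MSB with untreated and of each mutant with the control (columns), in mycelia and conidia. White circles mark genes past both thresholds, grey cells were not tested and the color scale ends at ±4. *agdC* is marked in the 4 MSB comparisons in conidia and in 0 of the 4 in mycelia, and *amyD* reaches −4.36 and −5.07 in untreated conidia without *atfA*.

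Of the upstream genes, *creA* was called in no comparison, with 119 ± 12.8 to 145 ± 10.4 RPKM in mycelia and 266 ± 11.9 to 683 ± 109.4 in conidia. The putative maltose transporter gene AN2289 was lower in conidia without *atfA*, at −1.15 (SE 0.165, adjusted p = 7.08e-06) in Δ*atfA* and −1.36 (SE 0.166, adjusted p = 9.67e-07) in Δ*atfA*Δ*atfB* untreated, and it was called in no mycelial comparison. The second putative maltose transporter gene, AN3515, had group means of 0.698 to 2.56 RPKM in mycelia and was lower in untreated Δ*atfA*Δ*atfB* conidia than in the control (−1.78, SE 0.329, adjusted p = 0.000121).

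As a description, Pearson's r of log2(RPKM + 0.1) was taken over the 48 libraries after centring within each of the 3 batches. Libraries share groups and depth, so no test is given. These RPKM were not RLE-scaled, so the shift of the median gene between conidial strains enters every r. The r of gene pairs in general is not given here, so these values do not set the members apart from other genes. *amyR* and *agdA* had an r of 0.873 with each other, *agdA* and *agdB* 0.727, and *amyR* and *agdB* 0.482. *amyA* had 0.390 with *amyR*, 0.310 with *agdA* and 0.007 with *agdB*. *amyB* was compared over the 24 conidial libraries alone, where it had 0.673 with *agdB* and 0.671 with *amyA*. The genes most like *agdB* were AN8369 (0.907), AN2718 (0.905) and AN8445 (0.900). Those most like *amyR* were AN4535 (0.881), AN6075 (0.878) and AN2002 (0.875), and those most like *agdA* were AN0481 (0.939), AN10600 (0.938) and AN7264 (0.936). For *amyA* they were AN5138 (*ilv3C*, 0.867), AN3661 (0.862) and AN10122 (0.861), and for *amyB* AN11797 (0.836), AN6127 (0.823) and AN5335 (0.820).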

How the data were processed

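RNA-seq of 48 libraries was deposited as 1 table of 10988 genes. Per the labels and the study's methods, the authors checked reads with FastQC, aligned them with HISAT2 2.1.0, and deposited a count of reads per gene. They divided the counts by the gene length (in bases) given in the deposited table and by the library total to make the deposited RPKM (edgeR). RPKM computed again from the counts differed by a relative 5.2e-15 at most. The authors' DESeq2 1.24.0 results are not used here. The counting tool, annotation and use of strand are not given in the sources used here, so reads of near-identical copies or overlapping genes may be divided between them.

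Each cell type was fitted with edgeR 4.0.16 (quasi-likelihood F test, R 4.3.3) on the counts, with RLE factors, 8 groups and all 24 libraries. A gene was tested if 3 or more libraries reached 0.5 RPKM, which left 9199 genes in mycelia and 10143 in conidia. By the labels, conidial replicates 1 and 2 were batch 1 and replicate 3 was batch 2, so batch was a term there. With 1 library of each group, batch 2 could not be fitted by itself. Mycelia were 1 batch. The labels name the replicates of a group as biological replicates. The p-values rest on the spread between replicates, pooled over the 8 groups of a cell type and partly shared across genes. They do not measure the spread of the compared groups alone.

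Alternatives were DESeq2 1.42.0, TMM factors, no filter, limma 3.58.1 on log2(RPKM + 0.1), the replicate number as a block, batch 1 alone, only the groups compared in the fit, and leaving out each library. Fitting was tested on simulated counts. The 5 genes and the lists were chosen with earlier results of these data known. Named besides them were up to 4 called genes of the amylolytic list, taken by size of fold change, *creA* and 2 transporters, flanking genes, and the 3 genes of highest r per member. For *amyB*, which was not tested in mycelia, r was taken over conidia alone. Gene order came from RefSeq, where 10032 of 10988 identifiers matched. Promoters and proteins were not analysed here.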

Additional observations from a re-analysis of the deposited data

Results flagged for a closer look

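The MSB effect on *agdB* differed between strains by edgeR's test of the difference itself in 3 cases. Relative to the control it was −1.58 (SE 0.572, adjusted p = 0.0397) for Δ*atfA* in mycelia, 2.53 (SE 0.610, adjusted p = 0.0132) for Δ*atfA* in conidia and 3.22 (SE 0.620, adjusted p = 0.00631) for Δ*atfA*Δ*atfB* in conidia. The first of these was lost on leaving out any of 9 of 12 libraries.

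In a further 7 comparisons all libraries of the first group lay, in RPKM, on 1 side of the second group's in mycelia and on the opposite side in conidia. The share of all genes with this pattern was not counted. In the conidial strain comparisons among them the median gene was 0.49 to 0.89 higher on unscaled RPKM. The log2 fold changes below are on scaled counts. The cell types were fitted apart, so the difference between them was not tested. *agdB* on MSB had a log2 fold change of −3.31 in mycelia and 2.97 in conidia for Δ*atfA* against control, and of −1.53 and 2.17 for Δ*atfA*Δ*atfB* against control. Untreated Δ*atfA*Δ*atfB* against Δ*atfB* had −2.79 and 0.85 (adjusted p = 0.101 in conidia). *amyA* on MSB in the control strain had 0.45 (adjusted p = 0.0521) in mycelia and −1.31 in conidia.

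*agdA* had −0.53 and 0.53 for untreated Δ*atfA*Δ*atfB* against control. Against Δ*atfB* it had −0.51 and 0.36 (adjusted p = 0.0879 in conidia) untreated, and −0.39 and 0.57 on MSB, in mycelia and conidia. None of these *agdA* values passed the fold threshold.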

How the results depend on the processing

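Of 367 values of the 28 called results under alternatives, 321 kept direction and call, 46 kept direction only and 0 reversed. All 28 calls held with DESeq2, TMM and no filter, 25 with limma on unscaled log2(RPKM + 0.1), 23 with only the groups compared in the fit, 12 of 13 in batch 1 alone and 151 of 186 on leaving out 1 library. Mycelial samples share only a replicate number, while in conidia replicate 3 is also batch 2, which the model holds as a term. Same-numbered deviations had correlations of −0.245 to 0.194 in mycelia and −0.166 to 0.636 in conidia. With the replicate block, 26 of 28 calls held. It took the Δ*atfA* interaction in mycelia from 1 member to 0 and untreated Δ*atfA*Δ*atfB* against control in conidia from 2 to 1.

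Other counts of called members moved as follows. With limma they became 2 (from 1) for MSB in control mycelia and 0 (from 1) for the Δ*atfA* interaction in mycelia. In conidia they became 3 (from 0) and 5 (from 2) for Δ*atfA* against control untreated and on MSB, 4 (from 1) for Δ*atfA*Δ*atfB* against control on MSB, and 2 and 3 (from 0) for Δ*atfA*Δ*atfB* against Δ*atfB* untreated and on MSB. Limma differs from the edgeR fit in both test and scaling, which were not separated. With only the groups compared, they became 0 (from 1) for Δ*atfA*Δ*atfB* against control and against Δ*atfA* in mycelia on MSB. In conidia they became 1 (from 2) for Δ*atfB* and for Δ*atfA*Δ*atfB* against control untreated and for Δ*atfA* on MSB, 1 (from 0) for Δ*atfB* against control and Δ*atfA*Δ*atfB* against Δ*atfB* on MSB, and 3 (from 1) for the Δ*atfA*Δ*atfB* interaction. In batch 1 alone they became 1 (from 0) for MSB in Δ*atfB* and in Δ*atfA*Δ*atfB*, for untreated Δ*atfA* against control, and for Δ*atfB* against control and Δ*atfA*Δ*atfB* against Δ*atfB* on MSB. They became 3 (from 2) for untreated Δ*atfB* against control, where *amyA* was gained (adjusted p = 0.00795), 1 (from 2) for Δ*atfA* against control on MSB, and 2 for each interaction (from 1, 0 and 1). With DESeq2 they became 2 (from 1) for untreated Δ*atfA*Δ*atfB* against Δ*atfA* and for the Δ*atfA*Δ*atfB* interaction, and 1 (from 0) for the Δ*atfB* interaction and Δ*atfA*Δ*atfB* against Δ*atfB* on MSB. With TMM they became 2 (from 1) for Δ*atfA*Δ*atfB* against control on MSB. The cause of these changes was not tested.

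On leaving out 1 library, the counts ranged in mycelia from 2 to 4 for MSB in Δ*atfA*, from 1 to 2 for MSB in the control, in Δ*atfB* and in Δ*atfA*Δ*atfB*, and from 0 to 1 for Δ*atfA*Δ*atfB* against control and against Δ*atfA* on MSB and for the Δ*atfA* interaction. In conidia they ranged from 2 to 3 for MSB in the control, from 0 to 3 for untreated Δ*atfA* against control, from 0 to 2 for untreated Δ*atfB* and Δ*atfA*Δ*atfB* against control and Δ*atfA*Δ*atfB* against Δ*atfA*, and from 1 to 2 for Δ*atfA* and Δ*atfA*Δ*atfB* against control on MSB and for the Δ*atfA* and Δ*atfA*Δ*atfB* interactions. They ranged from 0 to 1 for Δ*atfA*Δ*atfB* against Δ*atfB* untreated and on MSB and for the Δ*atfB* interaction. *amyB* had 74 reads in all 24 mycelial libraries, too few for a test, although these libraries were the deeper ones (median total 21308981 against 16584014 in conidia). The planned description of promoters and proteins was not run.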
